A study of Mus musculus with 12 samples.

Results

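The genes described here are the nuclear-encoded subunits and assembly factors of oxidative phosphorylation, taken as all symbols in the deposited tables that begin with Nduf, Uqcr, Atp5 or Cox followed by a digit from 4 to 8, together with Sdha, Sdhb, Sdhc and Sdhd. The rule gave 92 of 21851 genes and used no measured value, although it was chosen with earlier results of these data known. They comprise 36 complex I subunits, 8 complex I assembly factors, 4 complex II subunits, 8 complex III subunits, 20 complex IV genes and 16 complex V genes. Ndufa4 and Ndufa4l2 were placed with complex IV, of which Ndufa4 is known to be a subunit, and Atp5sl with the complex I assembly factors, since it is known to act there in spite of its name. The study sequenced RNA of cells washed from the peritoneal cavity of C57BL/6J mice. The 4 groups were lactoferrin knockout mice given lipopolysaccharide (LPS, a cell-wall component of Gram-negative bacteria that sets off inflammation), lactoferrin knockout mice given phosphate-buffered saline (PBS), wild-type mice given LPS and wild-type mice given PBS, with 3 libraries each. The sample titles call the mice of the knockout groups wild type, while their codes, descriptions and genotype entries say lactoferrin knockout, which is followed here. Whether every library is its own mouse is not stated, and p-values therefore reflect variation among libraries only. Dose, time after injection, ages and the construction of the knockout are not stated in the labels. The labels name no sorting of the cells, so fewer cells of a type and less RNA per cell cannot be told apart in any of these values.

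Oxidative phosphorylation couples the oxidation of NADH and succinate to the making of ATP in the inner mitochondrial membrane. Complex I takes electrons from NADH and complex II from succinate. Complex III passes them on to cytochrome c and complex IV to oxygen, and complex V uses the proton gradient built on the way to make ATP. Complexes I, III, IV and V hold subunits from both the nuclear and the mitochondrial genome, and the mitochondrially encoded ones are not analysed here. Macrophages given LPS are known to lower their respiration and to lean on glycolysis, with nitric oxide and itaconate known to inhibit respiratory enzymes at the protein level, so transcript levels of subunits are a separate matter from enzyme activity.

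The 12 libraries had FPKM totals between 344270 and 388464. FPKM is the number of fragments scaled to transcript length and to the mapped fragments of the library, so that levels can be compared between genes. Lactoferrin (Ltf) averaged 0.0899 ± 0.024 FPKM in knockout LPS, 0.218 ± 0.0376 in knockout PBS, 0.593 ± 0.639 in wild-type LPS and 1.43 ± 0.402 in wild-type PBS libraries (SD, n = 3 each), lower in knockout libraries but too low to be tested. Replicate 3 of wild-type PBS resembled its group least: its Spearman's rho with the 2 others was 0.949 and 0.934, where all other pairs within a group reached at least 0.973. Summed erythroid markers reached 1890 FPKM in knockout LPS replicate 1 and 2230 FPKM in wild-type LPS replicate 2, against 330.0 FPKM or less in the other libraries. Cell type markers moved with LPS. The summed level of 8 large peritoneal macrophage markers was 7430 to 9530 FPKM in knockout LPS against 12100 to 13900 in knockout PBS libraries, and 5820 to 8650 in wild-type LPS against 8570 to 21300 in wild-type PBS libraries. Most of this sum was Lyz2, which averaged 7780 FPKM in knockout LPS against 11300 in knockout PBS libraries. Its means were 6070 in wild-type LPS and 11600 in wild-type PBS libraries. Adgre1, Gata6, Icam2 and Cd5l were called lower in both genotypes and Selp higher (1.70 in knockout and 1.61 in wild-type mice). Prg4 was called in neither, Timd4 lower in knockout mice only and Lyz2 lower in wild-type mice only. The summed level of 9 neutrophil markers was 718 to 2680 FPKM in knockout LPS against 1200 to 3030 in knockout PBS libraries, and 155 to 283 in wild-type LPS against 1950 to 3260 in wild-type PBS libraries. In knockout mice these markers moved apart. Ngp was called higher there (3.82, with means of 20.4 FPKM under LPS and 0.36 under PBS), and Cxcr2 (-2.72) and Mmp9 (-2.42) lower. S100a8, S100a9, Retnlg and Csf3r were not called in knockout mice. In wild-type mice S100a8, S100a9, Retnlg, Cxcr2 and Mmp9 were called lower and Ngp and Csf3r were not called. The summed level of 6 B cell markers was 141 to 242 FPKM in knockout LPS against 634 to 871 in knockout PBS libraries, and 231 to 329 in wild-type LPS against 502 to 1080 in wild-type PBS libraries. The sums of T cell, monocyte and dendritic, and eosinophil markers were also lower in each LPS group than in its PBS group by their means. Of the monocyte and dendritic markers, Cd209a was called higher in knockout mice (0.82). Natural killer markers summed to a mean of 14.0 FPKM in knockout LPS against 8.91 in knockout PBS and 11.6 in wild-type LPS against 18 in wild-type PBS libraries. The higher knockout LPS sum came from Gzma, which averaged 12.4 FPKM there against 5.35 in knockout PBS libraries. Klrb1c, Ncr1 and Klrd1 had lower means in knockout LPS than in knockout PBS libraries, and Klrd1 was called lower. Mast cell markers summed to 395 to 428 FPKM in knockout LPS against 415 to 689 in knockout PBS libraries, and to 588 to 606 in wild-type LPS against 213 to 555 in wild-type PBS libraries. The eosinophil markers Ear1, Prg2 and Epx were under 0.1 FPKM in every group. The part of these shifts in the results below was not tested.

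Of the 92 genes, 84 averaged 1 FPKM or more across libraries and were tested, as were 45.0% of all genes. The 8 others were 7 tissue-restricted forms of complex IV subunits (Cox4i2, Cox6a2, Cox6b2, Cox7b2, Cox8b, Cox8c and Ndufa4l2) and Atp5s, which averaged 0.97 FPKM, just under the minimum. Ndufaf6, at 1.11 FPKM, and Cox7a1, at 1.07 FPKM, lay just above it. Cox4i2, Cox7b2, Cox8b and Cox8c were listed at 0 in every library. The forms that most tissues use were among the abundant transcripts of these cells, and 39 of the 92 genes ranked within the top 1000 of all genes by mean level. Tested complex IV genes had the highest median level, 137 FPKM, with Cox8a highest at 212 FPKM. Complex V genes had a median of 105 FPKM and the highest single level, 360.0 FPKM for Atp5b, the catalytic beta subunit. Complex III genes had a median of 59.6 FPKM with Uqcrb highest at 104 FPKM, complex II genes 57.4 FPKM with Sdhd highest at 74.0 FPKM, and complex I subunits 33.1 FPKM with Ndufa3 highest at 139 FPKM. The assembly factors of complex I, which act on the enzyme but do not stay in it, had a median of 4.1 FPKM and none was above 8.29 FPKM (Ndufaf4).

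The promoters of these genes are known to hold binding sites of nuclear respiratory factor 1 (NRF1) and of the ETS-family factor GABP, also called NRF2. RefSeq start sites and promoter sequences (GRCm38.p6, 250 bases before to 50 bases after the start) were matched for 76 of the 92 genes. The NRF1 core TGCGCA, which reads the same on both strands, stood in 19 of the 76 promoters (25%), against 14.4% of the promoters of all genes tested and 7.76% of all promoters. The ETS core CCGGAAG, searched on both strands, stood in 16 (21.1%), against 19.2% of promoters of genes tested and 8.86% of all. The NF-Y box CCAAT, searched on both strands, stood in 34 (44.7%), against 37.4% in both. Both the NRF1 and the ETS core were found in 4 promoters, those of Cox6a1, Ndufb6, Sdhd and Atp5l, or 5.26% against 3.28% of promoters of genes tested. A match is a description and no measured binding site. The 250 bases before the start follow for these 4 genes and for Ndufaf3 and Ndufaf4, which of the 8 complex I assembly factors had the largest fall and rise under LPS. All are written 5′ to 3′ on the gene's strand, with the motifs searched in capitals.
Cox6a1, chr5:115348959-115349208, minus strand: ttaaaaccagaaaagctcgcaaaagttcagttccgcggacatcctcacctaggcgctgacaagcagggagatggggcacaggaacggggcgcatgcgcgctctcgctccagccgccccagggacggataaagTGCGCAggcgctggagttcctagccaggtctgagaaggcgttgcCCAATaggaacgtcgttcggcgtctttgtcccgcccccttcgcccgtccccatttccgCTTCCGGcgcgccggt
Ndufb6, chr4:40279422-40279671, minus strand: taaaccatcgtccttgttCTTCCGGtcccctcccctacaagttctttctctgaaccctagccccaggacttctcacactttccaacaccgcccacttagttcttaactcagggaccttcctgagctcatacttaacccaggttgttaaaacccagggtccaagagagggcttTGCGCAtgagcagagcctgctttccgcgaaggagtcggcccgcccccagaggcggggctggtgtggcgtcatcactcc
Sdhd, chr9:50603850-50604099, minus strand: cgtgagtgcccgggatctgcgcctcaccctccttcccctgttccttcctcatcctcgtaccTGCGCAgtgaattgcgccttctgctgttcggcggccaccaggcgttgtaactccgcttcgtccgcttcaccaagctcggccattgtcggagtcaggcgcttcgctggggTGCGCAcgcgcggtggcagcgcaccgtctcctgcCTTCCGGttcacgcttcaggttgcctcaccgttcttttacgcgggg
Atp5l, chr9:44920743-44920992, minus strand: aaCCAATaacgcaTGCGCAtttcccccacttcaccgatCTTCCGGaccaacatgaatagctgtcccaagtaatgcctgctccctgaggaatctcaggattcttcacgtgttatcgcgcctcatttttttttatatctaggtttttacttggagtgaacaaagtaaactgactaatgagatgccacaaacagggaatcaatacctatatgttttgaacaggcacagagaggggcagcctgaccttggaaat
Ndufaf3, chr9:108567437-108567686, minus strand: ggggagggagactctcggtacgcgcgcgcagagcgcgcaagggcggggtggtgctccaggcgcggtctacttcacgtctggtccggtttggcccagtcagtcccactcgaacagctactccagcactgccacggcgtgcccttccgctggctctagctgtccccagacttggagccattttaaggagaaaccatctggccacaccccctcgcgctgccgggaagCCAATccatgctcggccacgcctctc
Ndufaf4, chr4:24897833-24898082, plus strand: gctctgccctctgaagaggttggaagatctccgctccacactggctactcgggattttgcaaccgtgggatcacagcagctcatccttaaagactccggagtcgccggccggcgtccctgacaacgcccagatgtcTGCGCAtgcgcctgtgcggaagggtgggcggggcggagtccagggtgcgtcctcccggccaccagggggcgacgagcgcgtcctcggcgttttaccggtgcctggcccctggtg
In Sdhd the NRF1 core occurs at both 189 and 80 bases before the start, and in Cox6a1 at 118 bases before it, upstream of a CCAAT box 74 bases and an ETS core 16 bases before the start. Ndufaf3 holds a CCAAT box but neither core, and Ndufaf4 an NRF1 core 114 bases before the start and another that begins at the start itself and is not shown. The NRF1 core was in 2 of 10 matched promoters of genes that rose under LPS in wild-type mice, in 2 of 12 of those that fell and in 15 of 50 of those not called.

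The comparison of LPS with PBS asks how the inflammatory stimulus changed these transcripts in each genotype. Most oxidative phosphorylation genes were not called, and a minority rose or fell. In knockout mice 17 of 84 genes were called (20.2%), 11 higher and 6 lower, at an adjusted p under 0.05 in limma's test with Benjamini-Hochberg adjustment over all 9841 genes tested. In wild-type mice 25 of 84 were called (29.8%), 13 higher and 12 lower. Over all genes tested, 53.2% were called in knockout mice (19.9% higher, 33.3% lower) and 62.2% in wild-type mice (24.8% higher, 37.4% lower). All LPS libraries lay above all PBS libraries for 18 genes and below for 20 in knockout mice (21.4% and 23.8%, against 24.6% and 41.3% of all genes tested), and for 19 and 18 in wild-type mice (22.6% and 21.4%, against 27.2% and 38.9%). The median absolute change was 0.143 on the log2(FPKM + 1) scale in knockout mice against 0.393 over all genes tested, and 0.194 against 0.475 in wild-type mice. Changes past 1 on the log2(FPKM + 1) scale that were also called numbered 1 of 84 in each genotype, Ndufaf3 in both (1.19%), against 15.3% of all genes tested in knockout and 20.8% in wild-type mice. The added 1 makes changes at low levels read smaller than the ratio of the FPKM. Ndufaf4, for example, averaged 11.1 FPKM in wild-type LPS against 5.51 in wild-type PBS libraries, a change of 0.91. All changes given on the log2 scale are on this scale. The standard error of the change had a median of 0.123 over these genes and 0.141 over all genes, and among genes of at least 5 FPKM the called share was 19.2% (15 of 78) against 55.1% in knockout and 28.2% (22 of 78) against 63.8% in wild-type mice. The coefficient of variation over all 12 libraries had a median of 11.2% for these genes and 25% for all genes tested. Sdhd, a membrane anchor of complex II, varied least, at 5.85%. Without the 2 libraries richest in erythroid markers 12 of 85 genes were called in knockout mice (8 higher, 4 lower) against 44.8% of all genes, and 19 of 85 in wild-type mice (8 higher, 11 lower) against 54.3%. Which genotype had more calls depended on the fit. With only the groups compared fitted, 19 of 84 were called in knockout mice (10 higher, 9 lower) against 56.6% of all genes. In wild-type mice 17 of 83 were then called (8 higher, 9 lower) against 54.6%.

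**Figure D1:**
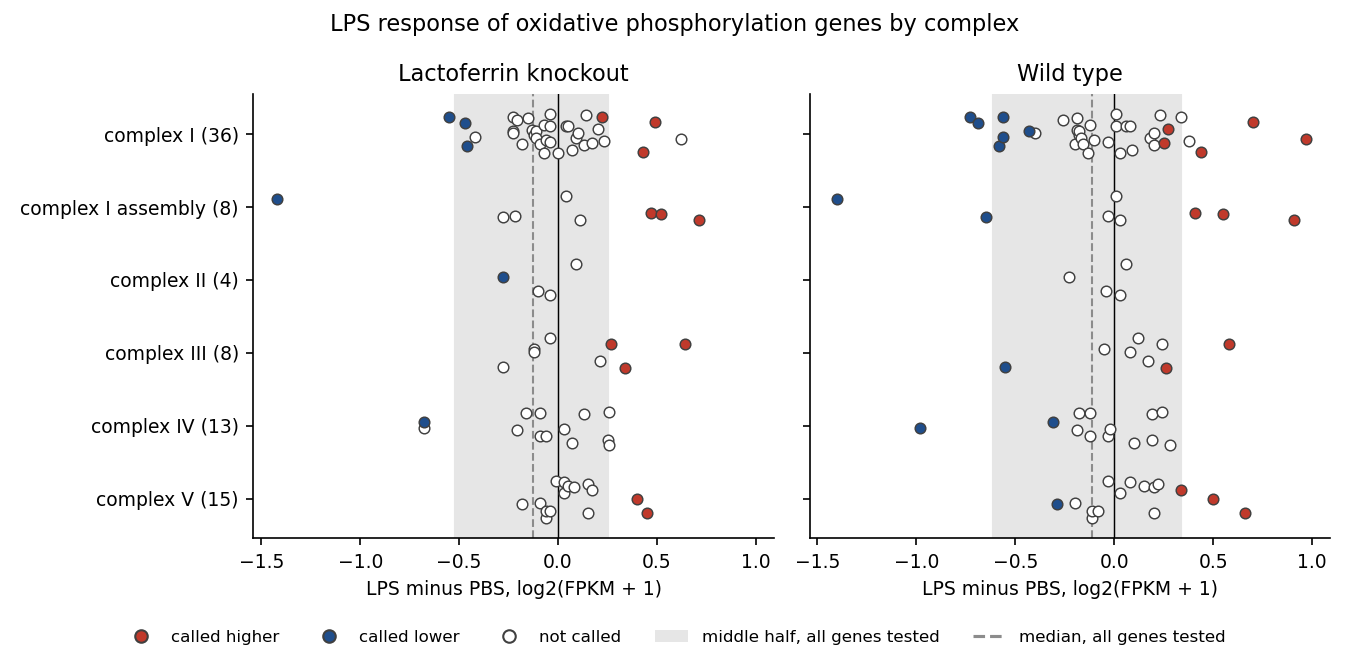
Change under LPS (LPS minus PBS, log2(FPKM + 1), horizontal axis) of each tested gene, by complex, in knockout (left) and wild-type (right) mice. Points are genes, filled where limma's adjusted p was under 0.05, with the middle 50% (grey) and the median (dashed) of all 9841 genes tested. Most points lie within the grey band, and Ndufaf3 stands alone at -1.42 in knockout and -1.40 in wild-type mice.

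The median change was -0.04 in knockout and 0.01 in wild-type mice, against medians of -0.12 and -0.11 over all genes. The balance of higher and lower calls depended on the scaling of the libraries: it was 24 to 3 in knockout and 32 to 9 in wild-type mice with median-of-ratios scaling, 21 to 4 and 27 to 9 with upper-quartile scaling, and 7 to 16 and 12 to 17 when all libraries were given equal FPKM totals. These scalings moved the median of all genes to values from -0.23 to 0.04 in knockout and from -0.15 to 0.05 in wild-type mice. The median of the 84 genes lay between -0.17 and 0.16 in knockout and between -0.03 and 0.18 in wild-type mice under them. Set against the median of all genes, the genes described here stood 0.07 to 0.11 higher in knockout and 0.12 to 0.13 higher in wild-type mice under each of them. No called gene changed sign under any setting tried. In the paragraphs on single genes, a range of changes after a lost call runs over the removal of each of the 12 libraries in turn. Under all 4 scalings 7 of 11 genes stayed called higher and 3 of 6 lower in knockout mice, and 12 of 13 higher and 9 of 12 lower in wild-type mice.

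Of the complex I subunits, 3 of 36 rose and 3 fell in knockout mice, and 5 rose and 6 fell in wild-type mice. The balance turned with the scaling: with median-of-ratios scaling 7 rose and 2 fell in knockout mice and 12 rose and 5 fell in wild-type mice, and with equal totals 2 rose and 8 fell and 4 rose and 9 fell. Ndufs3, a core subunit of the arm that carries electrons to ubiquinone, had 55.2, 57.5 and 50.2 FPKM in knockout LPS against 35.5, 41.0 and 39.0 in knockout PBS libraries, and 55.2, 65.5 and 63.6 in wild-type LPS against 38.4, 34.7 and 38.8 in wild-type PBS libraries. Every LPS library lay above every PBS library in both genotypes, with changes of 0.49 ± 0.11 in knockout (SE, adjusted p = 0.00256, limma) and 0.70 ± 0.11 in wild-type mice (adjusted p = 0.000169). Ndufs4 and Ndufb6 also rose in both genotypes, by 0.22 ± 0.08 and 0.43 ± 0.11 in knockout and 0.25 ± 0.08 and 0.27 ± 0.11 in wild-type mice. Ndufs4, an accessory subunit whose loss causes Leigh-like disease in mice, lost its call in knockout mice in 9 of 12 removals of a single library, all but wild-type PBS replicates 2 and 3 and wild-type LPS replicate 2, and with equal totals. In wild-type mice the call ended on removal of PBS replicate 2 or LPS replicate 2 (change 0.18 to 0.29). Ndufb6 lost its wild-type call with equal totals and in 10 of 12 removals of a library, all but wild-type LPS replicate 1 and knockout LPS replicate 3.

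Ndufa12, an accessory subunit added late in assembly, varied widely among the LPS libraries. It had 67.5, 59.5 and 32.6 FPKM in knockout LPS against 40.5, 29.7 and 29.3 in knockout PBS libraries, and 55.6, 92.9 and 47.8 in wild-type LPS against 34.1, 30.8 and 30.0 in wild-type PBS libraries. The groups overlapped in knockout mice and did not in wild-type mice, where it rose by 0.97 ± 0.28 (adjusted p = 0.0103, limma). In knockout mice the change was 0.62 ± 0.28 (adjusted p = 0.083), and the difference between the genotypes' changes did not pass its test (-0.35 ± 0.40, adjusted p = 0.801). Ndufab1, the mitochondrial acyl carrier protein, rose in wild-type mice by 0.44 ± 0.16 (adjusted p = 0.0343), a call lost without wild-type PBS replicate 1 or 3 or wild-type LPS replicate 2 or 3 (change 0.31 to 0.53).

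Among the subunits that fell, Ndufa3, a small subunit of the membrane arm, had 121, 108 and 104 FPKM in knockout LPS against 146, 160.0 and 154 in knockout PBS libraries, and 109, 113 and 105 in wild-type LPS against 185, 160.0 and 202 in wild-type PBS libraries. All LPS libraries lay below all PBS libraries, with changes of -0.47 ± 0.11 in knockout (adjusted p = 0.0052, limma) and -0.73 ± 0.11 in wild-type mice (adjusted p = 0.000225). Ndufb10 and Ndufb11, both of the membrane arm, fell as well, by 0.46 ± 0.13 and 0.55 ± 0.11 on the log2 scale in knockout and by 0.58 ± 0.13 and 0.56 ± 0.11 in wild-type mice, with groups that did not overlap. The knockout call of Ndufb10 was lost with median-of-ratios scaling. Ndufa13 (GRIM-19) and Ndufa6 fell in wild-type mice, by 0.56 ± 0.12 (adjusted p = 0.00202) and 0.69 ± 0.17 (adjusted p = 0.00444) on the log2 scale. In knockout mice their changes were -0.23 ± 0.12 (adjusted p = 0.127, limma) and -0.42 ± 0.17 (adjusted p = 0.0538). Neither was called there, although for both all knockout LPS libraries lay below all knockout PBS libraries. Ndufa6 reached 85.3 FPKM in wild-type PBS replicate 3 against 53.5 and 52.9 in the other replicates of that group. Without that library its change was -0.42 ± 0.11 in knockout mice, then also called (adjusted p = 0.00522), and -0.46 ± 0.12 in wild-type mice (adjusted p = 0.0061). Ndufb3 was called lower in wild-type mice (-0.43 ± 0.17), a call lost with median-of-ratios or upper-quartile scaling and in 8 of 12 removals of a library, all but wild-type PBS replicates 1 and 2 and knockout LPS replicates 1 and 3. Its change was -0.23 without wild-type PBS replicate 3.

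Ndufv1 and Ndufs1, at the catalytic start of complex I, were not called. Ndufv1, which binds NADH, averaged 19.3 ± 0.615 FPKM in knockout LPS, 21.2 ± 0.766 in knockout PBS, 18.4 ± 2.59 in wild-type LPS and 21.1 ± 1.72 in wild-type PBS libraries. Ndufs1, the large iron-sulfur subunit, averaged 18 ± 0.608, 20.1 ± 1.43, 19.8 ± 1.20 and 17.4 ± 2.60 FPKM in the same groups. The changes of Ndufv1 and Ndufs1 lay between -0.19 and 0.18, with standard errors of 0.11.

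**Figure D2:**
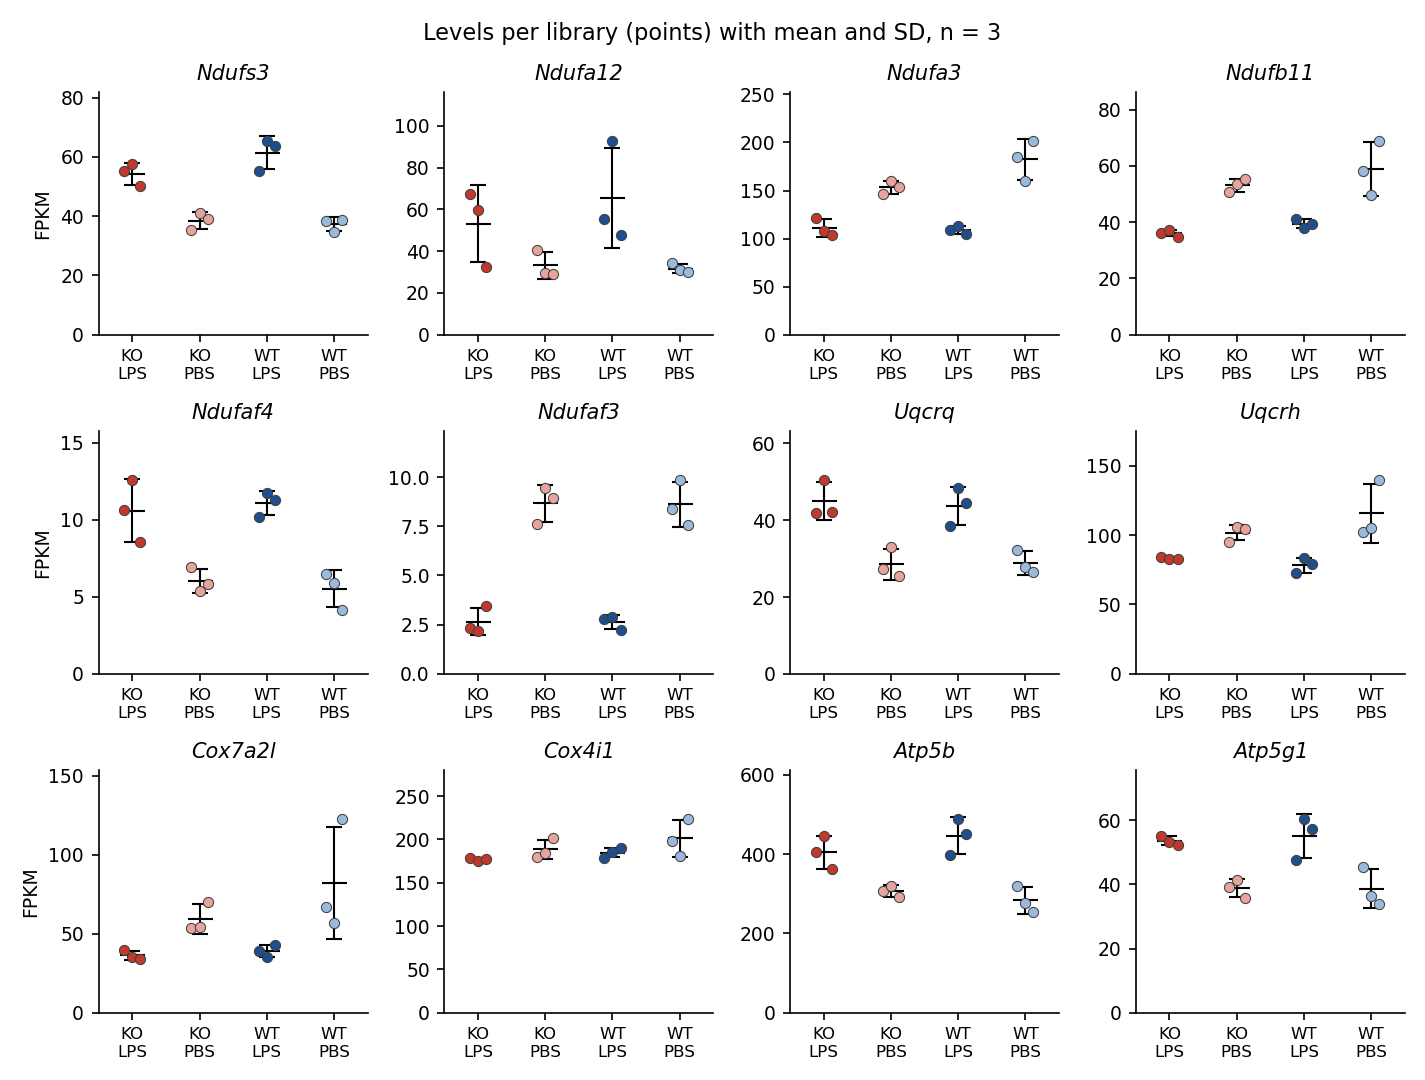
FPKM in each library (points) of 12 genes, with the mean and SD (n = 3) of knockout (KO) LPS, KO PBS, wild-type (WT) LPS and WT PBS libraries. Ndufs3, Ndufaf4, Uqcrq, Atp5b and Atp5g1 lie higher and Ndufa3, Ndufb11, Ndufaf3, Uqcrh and Cox7a2l lower in all LPS than in all PBS libraries of the same genotype, Ndufa12 overlaps in KO mice, and Cox4i1 lies between 175 and 224 FPKM throughout.

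Of the 8 complex I assembly factors, 3 rose and 1 fell in knockout mice, and 3 rose and 2 fell in wild-type mice. With equal totals 3 rose and 2 fell in knockout mice, and the other counts were the same under all 4 scalings. Ndufaf3 and Ndufaf4 are known from human cells to bind each other and to act together early in assembly. Ndufaf3 had 2.31, 2.20 and 3.43 FPKM in knockout LPS against 7.64, 9.43 and 8.92 in knockout PBS libraries, and 2.78, 2.89 and 2.24 in wild-type LPS against 8.38, 9.88 and 7.58 in wild-type PBS libraries. It fell in both genotypes with no overlap, by 1.42 ± 0.14 on the log2(FPKM + 1) scale in knockout (adjusted p = 1.96e-05, limma) and 1.40 ± 0.14 in wild-type mice (adjusted p = 1.55e-05). Ndufaf4 had 10.6, 12.6 and 8.52 FPKM in knockout LPS against 6.91, 5.39 and 5.82 in knockout PBS libraries, and 10.2, 11.7 and 11.3 in wild-type LPS against 6.49, 5.89 and 4.16 in wild-type PBS libraries. It rose in both with no overlap, by 0.71 ± 0.16 (adjusted p = 0.00334) in knockout and 0.91 ± 0.16 (adjusted p = 0.000521) in wild-type mice. Both calls stood in both genotypes after every removal of a single library and under every scaling.

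Ndufaf2, a relative of Ndufa12 that is known to hold its place during assembly, rose by 0.52 ± 0.13 in knockout (adjusted p = 0.0061, limma) and 0.55 ± 0.13 in wild-type mice (adjusted p = 0.00341), with no overlap of the groups. A long noncoding RNA on the opposite strand shares 65.6% of its exon bases, and whether counting used the strand is not stated, so its value may hold reads of both. Ndufaf6, at 1.62 ± 0.179 FPKM in knockout LPS against 0.886 ± 0.0544 in knockout PBS and 1.26 ± 0.497 in wild-type LPS against 0.671 ± 0.103 in wild-type PBS libraries, was called higher in both (0.47 ± 0.14 and 0.41 ± 0.14). That call was lost in knockout mice without knockout LPS replicate 2, and in wild-type mice without wild-type PBS replicate 2 or wild-type LPS replicate 3, the change being 0.24 without wild-type LPS replicate 3. Ndufaf7, a methyltransferase known to act in complex I assembly, fell in wild-type mice by 0.65 ± 0.16 on the log2 scale (adjusted p = 0.00433), and its change in knockout mice was -0.22 ± 0.16. Ndufaf1, Ndufaf5 and Atp5sl were called in neither.

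Complex II subunits changed little in the values as deposited, where 1 of 4 fell in knockout mice and none was called in wild-type mice. With median-of-ratios scaling 1 rose and none fell in knockout mice, and with equal totals 1 fell in each genotype. Sdha, the flavoprotein that oxidises succinate, had 52.0, 46.7 and 51.5 FPKM in knockout LPS against 61.5, 61.8 and 60.1 in knockout PBS libraries, and 49.5, 53.0 and 47.3 in wild-type LPS against 59.5, 53.4 and 64.0 in wild-type PBS libraries. The LPS libraries lay below the PBS libraries in both, with a fall of 0.28 ± 0.10 on the log2 scale in knockout mice (adjusted p = 0.0295, limma) and a change of -0.23 ± 0.10 in wild-type mice (adjusted p = 0.0566). The knockout call was lost without any one of the knockout PBS libraries or knockout LPS replicate 2 (change -0.31 to -0.23) and with median-of-ratios or upper-quartile scaling. In the values as deposited Sdhb, Sdhc and Sdhd were called in neither genotype, with changes from -0.10 to 0.09.

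In complex III, 3 of 8 genes rose in knockout mice and none fell, while in wild-type mice 2 rose and 1 fell. With median-of-ratios scaling 4 rose in knockout mice, and 5 rose and 1 fell in wild-type mice, while with equal totals 1 rose and 1 fell in knockout mice. Uqcrq, a small subunit also called the ubiquinone-binding protein, had 41.9, 50.6 and 42.2 FPKM in knockout LPS against 27.2, 33.1 and 25.4 in knockout PBS libraries, and 38.5, 48.4 and 44.4 in wild-type LPS against 32.3, 27.7 and 26.6 in wild-type PBS libraries. It rose in both genotypes with no overlap, by 0.64 ± 0.13 in knockout (adjusted p = 0.00215, limma) and 0.58 ± 0.13 in wild-type mice (adjusted p = 0.00279). Uqcrfs1, the Rieske iron-sulfur protein, rose by 0.27 ± 0.09 in knockout and 0.26 ± 0.09 in wild-type mice. Those calls were lost in knockout mice without knockout PBS replicate 2 or 3 (change 0.26 to 0.29) or with equal totals, and in wild-type mice without wild-type PBS replicate 1 or 2 or wild-type LPS replicate 2 or 3 (change 0.23 to 0.31). Uqcr10 was called higher in knockout mice (0.34 ± 0.12, adjusted p = 0.0378), a call lost without any of the knockout PBS libraries, without knockout LPS replicate 2 or 3 (change 0.29 to 0.43) and with equal totals. Uqcrh, the hinge protein that helps cytochrome c1 meet cytochrome c, had 84.1, 82.7 and 83.0 FPKM in knockout LPS against 95.3, 106 and 104 in knockout PBS libraries, and 72.4, 83.3 and 79.1 in wild-type LPS against 102, 105 and 140.0 in wild-type PBS libraries. The groups did not overlap in either genotype, and it fell in wild-type mice by 0.55 ± 0.13 on the log2 scale (adjusted p = 0.00301), with a change of -0.28 ± 0.13 in knockout mice (adjusted p = 0.0791). With the highest library of wild-type PBS, replicate 3, removed, the knockout change was called (-0.28 ± 0.09, adjusted p = 0.0169) and the wild-type change was -0.40 ± 0.10. The core protein Uqcrc1 changed by 0.21 ± 0.10 in knockout and 0.24 ± 0.10 in wild-type mice, uncalled although its groups did not overlap, and Uqcrc2 was called in neither.

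In complex IV no gene rose in either genotype, and 1 of 13 fell in knockout and 2 of 13 in wild-type mice. With median-of-ratios scaling 3 were called higher in knockout and 5 in wild-type mice, and with upper-quartile scaling 3 in each, so this absence of higher calls held only for the values as deposited and for equal totals. Cox7a2l (SCAF1), which tethers complex III to complex IV and is known to be a shortened protein in C57BL/6 mice, had 39.7, 35.3 and 34.0 FPKM in knockout LPS against 53.7, 54.1 and 70.1 in knockout PBS libraries, and 39.2, 35.2 and 43.0 in wild-type LPS against 66.8, 57.0 and 123 in wild-type PBS libraries. All LPS libraries lay below all PBS libraries. It fell by 0.68 ± 0.23 on the log2 scale in knockout (adjusted p = 0.0277, limma) and 0.98 ± 0.23 in wild-type mice (adjusted p = 0.00354). With replicate 3 of wild-type PBS removed, the wild-type change was -0.65 ± 0.14 (adjusted p = 0.00287). In knockout mice it was no longer called on removal of PBS replicate 3 or LPS replicate 2 or 3 (change -0.75 to -0.56) and with median-of-ratios or upper-quartile scaling. Cox8a, a small membrane subunit, was called lower in wild-type mice (-0.31 ± 0.11), a call lost without wild-type PBS replicate 1 or wild-type LPS replicate 1 or 3 (change -0.37 to -0.27) and with median-of-ratios or upper-quartile scaling. Cox4i1, the main regulatory subunit, had 179, 175 and 177 FPKM in knockout LPS against 180.0, 184 and 201 in knockout PBS libraries, and 179, 185 and 190.0 in wild-type LPS against 198, 181 and 224 in wild-type PBS libraries, with changes of -0.09 ± 0.11 and -0.12 ± 0.11. Cox5a (0.26 ± 0.13 in knockout and 0.28 ± 0.13 in wild-type mice) and Cox6c (0.03 ± 0.12 and 0.10 ± 0.12) were not called.

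The tissue-restricted forms of complex IV subunits stayed low in every group. Cox7a2 averaged 67.3 ± 5.32 FPKM in knockout LPS, 56.6 ± 5.88 in knockout PBS, 60.8 ± 4.06 in wild-type LPS and 66.0 ± 2.97 in wild-type PBS libraries, against 0.727 ± 0.206, 1.95 ± 1.42, 0.820 ± 0.882 and 0.776 ± 0.524 FPKM for its muscle form Cox7a1. Cox6a2 and Cox6b2, known from muscle and testis, reached at most 0.518 FPKM in any library. Ndufa4 averaged 110.0 ± 8.47 FPKM in knockout LPS against 114 ± 6.99 in knockout PBS and 111 ± 13.1 in wild-type LPS against 113 ± 11.9 in wild-type PBS libraries. AA467197 (Nmes1), a relative of Ndufa4 known to take its place in complex IV of inflamed cells and not among the 92 genes, had 42.0, 34.7 and 48.8 FPKM in knockout LPS against 21, 12.2 and 16.5 in knockout PBS libraries, and 60.2, 109 and 11.5 in wild-type LPS against 15.2, 14.6 and 2.94 in wild-type PBS libraries. The groups did not overlap in knockout mice but the change of 1.30 ± 0.70 was not called (adjusted p = 0.137, limma). They overlapped in wild-type mice, where replicate 3 of both treatments was low, and the change of 2.14 ± 0.70 was called (adjusted p = 0.0197) but not without wild-type PBS replicate 3 or wild-type LPS replicate 1 or 2.

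In complex V, 2 of 15 genes rose and none fell in knockout mice, and 3 rose and 1 fell in wild-type mice. With median-of-ratios scaling 6 rose in knockout and 7 in wild-type mice and none fell, with upper-quartile scaling 5 and 6 rose and none fell, and with equal totals 1 rose and 1 fell in knockout mice and 3 rose and 2 fell in wild-type mice. The most abundant transcript, Atp5b, was among those that rose in both. Atp5b had 405, 446 and 363 FPKM in knockout LPS against 308, 321 and 291 in knockout PBS libraries, and 397, 490.0 and 452 in wild-type LPS against 319, 277 and 254 in wild-type PBS libraries. The groups did not overlap, with rises of 0.40 ± 0.13 in knockout (adjusted p = 0.0247, limma) and 0.66 ± 0.13 in wild-type mice (adjusted p = 0.0012). In knockout mice it was no longer called on removal of PBS replicate 1 or 3 or LPS replicate 1 or 2 (change 0.32 to 0.47) and with equal totals. Atp5a1, the alpha subunit that alternates with beta in the catalytic ring, averaged 277 ± 18.3 FPKM in knockout LPS against 245 ± 7.85 in knockout PBS and 295 ± 19.4 in wild-type LPS against 233 ± 23.7 in wild-type PBS libraries. It was called in wild-type mice (0.34 ± 0.11, adjusted p = 0.0221), though not without wild-type PBS replicate 2 or wild-type LPS replicate 2 or 3 (change 0.26 to 0.41), and its change in knockout mice was 0.17 ± 0.11. Atp5c1, the central stalk, averaged 39.6 ± 1.95, 41.4 ± 1.66, 39.2 ± 3.02 and 42.9 ± 7.91 FPKM in knockout LPS, knockout PBS, wild-type LPS and wild-type PBS libraries and was not called.

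Atp5g1, Atp5g2 and Atp5g3 encode the same mature subunit c, the ring that turns with the proton flow. Atp5g1 had 55.1, 53.3 and 52.3 FPKM in knockout LPS against 39.3, 41.5 and 35.9 in knockout PBS libraries, and 47.5, 60.5 and 57.3 in wild-type LPS against 45.5, 36.5 and 34.0 in wild-type PBS libraries. It rose with no overlap of the groups in both genotypes, by 0.45 ± 0.13 in knockout (adjusted p = 0.0109, limma) and 0.50 ± 0.13 in wild-type mice (adjusted p = 0.00502). The more abundant Atp5g2 and Atp5g3 were not called, with changes of -0.01 ± 0.15 and 0.15 ± 0.10 in knockout and 0.22 ± 0.15 and 0.20 ± 0.10 in wild-type mice. Atp5j2, subunit f of the membrane part, was called lower in wild-type mice (-0.29 ± 0.11), a call lost without wild-type PBS replicate 1 or 3 or wild-type LPS replicate 1 or 3 (change -0.35 to -0.24) and with median-of-ratios or upper-quartile scaling.

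**Figure D3:**
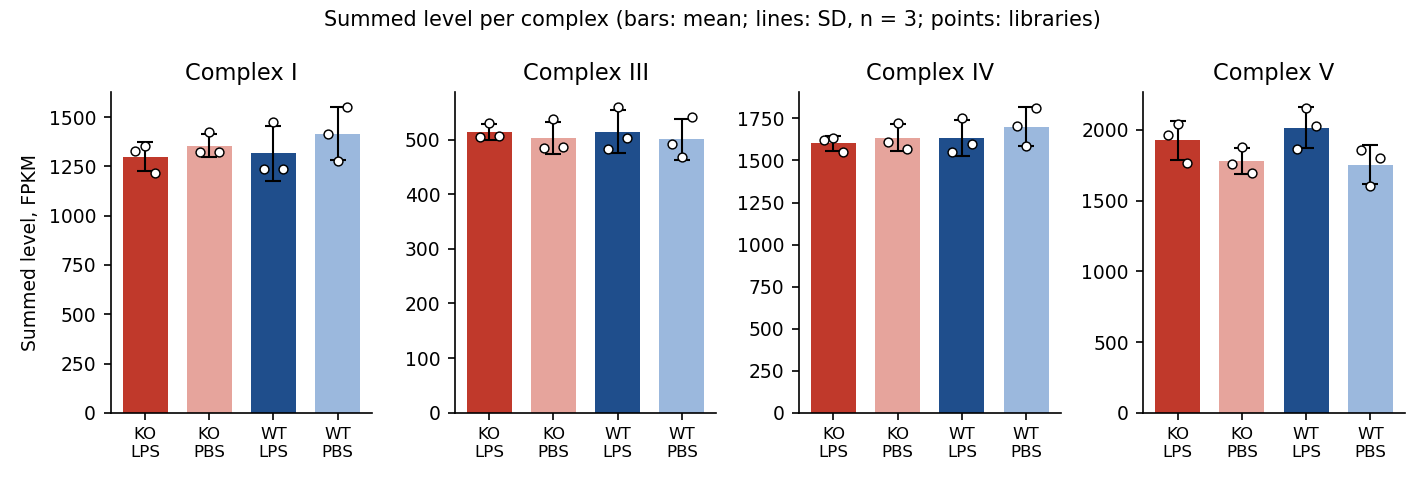
Summed FPKM of all genes of complexes I, III, IV and V in each library (points), with the mean (bar) and SD (line, n = 3) of KO LPS, KO PBS, WT LPS and WT PBS libraries. The complex V sum averages 1925 and 2014 FPKM in the LPS groups and 1780 and 1754 FPKM in the PBS groups, and that of complex III 513 and 515 FPKM in the LPS groups.

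Summed over all 92 genes, the level was 5596 ± 275 FPKM in knockout LPS against 5545 ± 263 in knockout PBS and 5739 ± 433 in wild-type LPS against 5639 ± 414 in wild-type PBS libraries, ratios of 1.01 and 1.02. The same sums were 1.46% ± 0.0609, 1.59% ± 0.0621, 1.56% ± 0.0696 and 1.58% ± 0.0920 of all FPKM in those groups. Complex V summed to 1925 ± 140 FPKM in knockout LPS against 1780 ± 92.6 in knockout PBS and 2014 ± 146 in wild-type LPS against 1754 ± 135 in wild-type PBS libraries, ratios of 1.08 and 1.15. Complex I subunits summed to 1300 ± 72.2 FPKM in knockout LPS against 1356 ± 58.0 in knockout PBS and 1316 ± 138 in wild-type LPS against 1415 ± 135 in wild-type PBS libraries, ratios of 0.958 and 0.93. No test was made on these sums. With median-of-ratios scaling the sum over all 92 genes under LPS was 1.16 times the PBS level in both genotypes, and with equal totals it was 0.92 times the PBS level in knockout mice.

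The comparison of knockout with wild-type mice asks whether the loss of lactoferrin changed these genes. None of the 84 was called between the genotypes under LPS, where the count over all genes was also 0 (0.0%) and 0 of the 84 passed an unadjusted p under 0.05 (7.56% over all genes). None was called under PBS, against 0.112% of all genes, with 1 of 84 at an unadjusted p under 0.05 (9.11% over all genes). The LPS response differed between the genotypes for none of the 84, against 0.0406% of all genes, with 2 at an unadjusted p under 0.05 (9.61% over all genes). Under LPS the 95% interval of the difference lay within 0.5 on the log2 scale for 74 of 84 genes and within 1 for all 84, and under PBS for 75 and 83. The interval of the difference in response was wider and lay within 0.5 for 42 of 84.

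The lowest adjusted p between genotypes under PBS was that of Ndufaf7, at 3.57, 3.32 and 3.80 FPKM in knockout PBS against 4.14, 4.69 and 6.43 in wild-type PBS libraries. The knockout libraries lay below all wild-type libraries, with a difference of -0.40 ± 0.16 (adjusted p = 0.496, limma). Under LPS it was that of Ndufaf1, which helps to build the membrane arm, at 2.99, 4.07 and 3.24 FPKM in knockout LPS against 3.52, 5.27 and 4.30 in wild-type LPS libraries, overlapping groups with a difference of -0.27 ± 0.15 (adjusted p = 0.702). Ndufa12 had a difference of -0.30 ± 0.28 under LPS, which was 0.01 without knockout LPS replicate 3, Ndufaf5 one of 0.19 ± 0.13 and Ndufaf6 one of 0.23 ± 0.14. Under PBS Cox7a2l had a difference of -0.39 ± 0.23, which was -0.07 without wild-type PBS replicate 3, Ndufab1 one of 0.26 ± 0.16 and Cox7a1 one of 0.68 ± 0.37. None of these passed the test. The smallest p for a difference in response was that of Cox7a2, which changed by 0.25 ± 0.11 in knockout and -0.12 ± 0.11 in wild-type mice (difference 0.36 ± 0.15, adjusted p = 0.493).

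**Figure D4:**
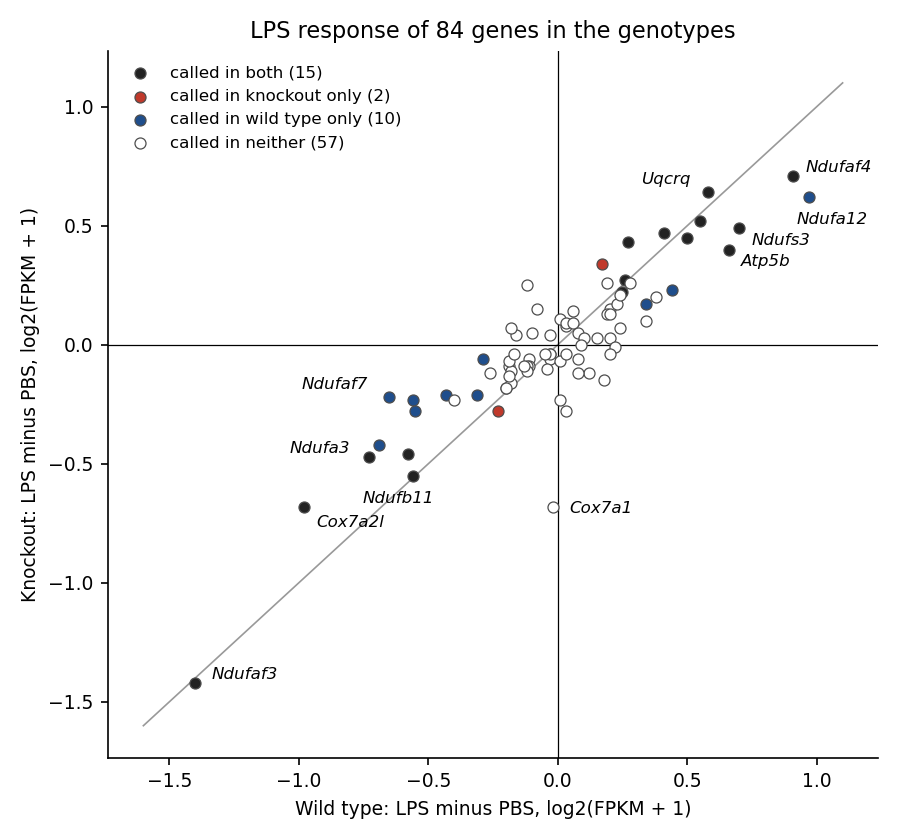
Change under LPS (log2(FPKM + 1)) of the 84 tested genes in knockout (vertical axis) against wild-type mice (horizontal axis), with the line of equal change. Filled points were called in both genotypes (15), in knockout only (2) or in wild type only (10), and most fall near the line.

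The changes in knockout and wild-type mice rest on separate libraries, but their calls share an estimate of each gene's spread over all 12 libraries. Of the 84 genes 67 changed in the same direction, and Pearson's r across them was 0.88 (Spearman's rho 0.83), against 0.91 for both over all 9841 genes tested. Genes are not independent replicates, so no p is given. Called in both genotypes were 10 genes that rose (Atp5b, Atp5g1, Ndufaf2, Ndufaf4, Ndufaf6, Ndufb6, Ndufs3, Ndufs4, Uqcrfs1 and Uqcrq) and 5 that fell (Cox7a2l, Ndufa3, Ndufaf3, Ndufb10 and Ndufb11), and none was called in opposite directions. The shares of all genes tested with the same direction or with calls in both genotypes were not computed. The counts are therefore not read as particular to the genes described here. Another 10 were called in wild-type mice and not in knockout mice, and Uqcr10 and Sdha in knockout mice and not in wild-type mice, but the difference in response was called for none of these 12 genes.

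Genes that serve the respiratory chain without being subunits were described from lists, which were also chosen with earlier results of these data known. Of 20 mitochondrial import, carrier and chaperone genes, 15 rose and 1 fell in knockout mice, and 15 rose and none fell in wild-type mice, with median changes of 0.61 and 0.75. The shares over all genes tested were 19.9% higher and 33.3% lower in knockout mice, and 24.8% and 37.4% in wild-type mice. Hspd1, the chaperonin that folds imported proteins, had 203, 280.0 and 198 FPKM in knockout LPS against 89.0, 110.0 and 87.9 in knockout PBS libraries, and 202, 279 and 245 in wild-type LPS against 92.7, 102 and 48.4 in wild-type PBS libraries. It rose with no overlap, by 1.23 ± 0.26 in knockout (adjusted p = 0.002, limma) and 1.63 ± 0.26 in wild-type mice (adjusted p = 0.000236). Timm23, the channel of the inner-membrane import machinery, rose by 0.76 ± 0.16 and 1.12 ± 0.16, and Tomm40, the channel of the outer membrane, by 0.74 ± 0.16 and 1.12 ± 0.16. The gene that fell was Vdac3, a channel of the outer membrane, in knockout mice (-0.26 ± 0.09), a call lost without any of the knockout PBS libraries or knockout LPS replicate 1 or 2. The counts of higher calls were 14 to 18 in knockout and 15 to 19 in wild-type mice under the other scalings.

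Of 33 tested assembly factors of complexes II to V, 9 rose and 4 fell in knockout mice and 11 rose and 8 fell in wild-type mice. Over all genes tested 19.9% rose and 33.3% fell in knockout mice, and 24.8% and 37.4% in wild-type mice. With median-of-ratios scaling the counts were 14 and 3 in knockout and 17 and 4 in wild-type mice, and with equal totals the knockout counts were 3 and 7. The knockout count of genes that rose was 4 or 5 on removal of replicate 2 or 3 of its PBS or replicate 1 or 2 of its LPS libraries, and that of genes that fell was 2 without knockout PBS replicate 1. Sdhaf1, needed to put the iron-sulfur clusters into Sdhb, had 50.9, 48.3 and 34.2 FPKM in knockout LPS against 14.0, 12.0 and 15.4 in knockout PBS libraries, and 60.5, 57.6 and 65.6 in wild-type LPS against 17.1, 14.9 and 16.7 in wild-type PBS libraries. It rose with no overlap, by 1.60 ± 0.15 in knockout (adjusted p = 9.68e-06, limma) and 1.85 ± 0.15 in wild-type mice (adjusted p = 2.99e-06), while Sdhb, its target, changed by 0.09 ± 0.11 and 0.06 ± 0.11. Uqcc3, which acts early in building complex III, had 4.17, 3.55 and 3.14 FPKM in knockout LPS against 10.4, 11.9 and 13.2 in knockout PBS libraries, and 3.54, 3.46 and 3.09 in wild-type LPS against 14.1, 13.0 and 21.4 in wild-type PBS libraries. It fell with no overlap, by 1.47 ± 0.16 on the log2 scale in knockout (adjusted p = 3.23e-05) and 1.95 ± 0.16 in wild-type mice (adjusted p = 4.35e-06). Surf1, which helps to insert haem into Cox1, fell in wild-type mice (-1.24 ± 0.22, adjusted p = 0.000479) and changed by -0.51 ± 0.22 in knockout mice (adjusted p = 0.0686). Cox10, which carries out a step in the making of that haem, rose in both (0.39 ± 0.12 in knockout and 1.02 ± 0.12 in wild-type mice), uncalled in knockout mice on removal of PBS replicate 2 or 3 or LPS replicate 1 or 2. Of 7 tested complex I assembly factors outside the Nduf names, none rose and 1 fell in knockout mice and 2 rose and 1 fell in wild-type mice, Tmem126b being the gene that fell in both (-0.62 ± 0.19 and -0.72 ± 0.19). In knockout mice it was no longer called on removal of PBS replicate 1 or LPS replicate 2. The genes that rose in wild-type mice were Acad9 (0.46 ± 0.11) and Ecsit (0.41 ± 0.12), the call of Ecsit being lost without wild-type LPS replicate 2.

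Of 15 electron carriers and ubiquinone-linked enzymes, 4 rose and 4 fell in knockout mice, and 6 rose and 4 fell in wild-type mice. Over all genes tested 19.9% rose and 33.3% fell in knockout mice, and 24.8% and 37.4% in wild-type mice. The knockout count of genes that rose was 1 on removal of replicate 1 or 3 of its PBS or replicate 2 of its LPS libraries and with equal totals, and that of genes that fell was 2 on removal of replicate 2 of either. Cycs, cytochrome c, averaged 30.3 ± 4.57 FPKM in knockout LPS against 19.5 ± 2.49 in knockout PBS and 29.3 ± 3.45 in wild-type LPS against 16.1 ± 4.84 in wild-type PBS libraries and rose in both (0.61 ± 0.20 and 0.86 ± 0.20), uncalled in knockout mice on removal of PBS replicate 1 or 3 or LPS replicate 2. Sqrdl, the sulfide oxidase that feeds ubiquinone, fell by 1.06 ± 0.21 on the log2 scale in knockout (adjusted p = 0.00136, limma) and 1.64 ± 0.21 in wild-type mice (adjusted p = 5.31e-05). Of 12 tested regulators of nuclear mitochondrial genes, 3 rose in knockout and 6 in wild-type mice and none fell. The knockout count was 1 without wild-type LPS replicate 1, any of the knockout PBS libraries or knockout LPS replicate 1 or 2, and with equal totals 1 rose and 1 fell. Myc rose by 1.76 ± 0.20 in knockout (adjusted p = 4.14e-05) and 1.53 ± 0.20 in wild-type mice (adjusted p = 7.37e-05). Pprc1, a coactivator of NRF1, rose by 0.50 ± 0.19 and 0.81 ± 0.19, the knockout call being lost in 8 of 12 removals of a library, all but the wild-type PBS libraries and knockout LPS replicate 3. Nrf1 itself averaged 3.68 FPKM in knockout LPS against 3.57 in knockout PBS and 3.81 in wild-type LPS against 3.08 in wild-type PBS libraries, with changes of 0.03 ± 0.10 in knockout and 0.24 ± 0.10 in wild-type mice. The wild-type change was called (adjusted p = 0.0448, limma) but not in 9 of 12 removals of a library, all but wild-type PBS replicate 1 and knockout LPS replicates 2 and 3.

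Of 10 tested genes known to bear on respiration in LPS-treated macrophages, 5 rose and 3 fell in knockout mice, and 6 rose and 3 fell in wild-type mice. Over all genes tested 19.9% rose and 33.3% fell in knockout mice, and 24.8% and 37.4% in wild-type mice. The knockout count of genes that rose was 3 on removal of replicate 1 of its PBS or replicate 3 of its LPS libraries. Nos2, the inducible nitric oxide synthase, rose by 5.24 ± 0.31 in knockout (adjusted p = 6.02e-07, limma) and 5.11 ± 0.31 in wild-type mice (adjusted p = 6.56e-07). Those that fell were Ucp2, an uncoupling protein homologue (-1.09 ± 0.14 in knockout and -1.35 ± 0.14 in wild-type mice), Higd2a, which aids complex IV assembly (-0.91 ± 0.18 and -1.24 ± 0.18), and Atpif1, the inhibitor of complex V. Atpif1 had 12.2, 8.51 and 9.82 FPKM in knockout LPS against 16.5, 18.8 and 15.1 in knockout PBS libraries, and 10.5, 10.4 and 9.81 in wild-type LPS against 14.5, 13.2 and 28.1 in wild-type PBS libraries, with no overlap. Its changes were -0.68 ± 0.23 in knockout (adjusted p = 0.0254) and -0.72 ± 0.23 in wild-type mice (adjusted p = 0.016), and -0.40 in wild-type mice without wild-type PBS replicate 3. In knockout mice it was no longer called on removal of PBS replicate 1 or 2 or LPS replicate 2 or 3. Of 8 housekeeping genes, 2 rose and 2 fell in knockout mice and 2 rose and 1 fell in wild-type mice, counts that single libraries and the scaling also moved.

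Some of these genes lie head to head with a neighbour. Of the 84 tested genes 26 (31.0%) had a protein-coding partner on the opposite strand whose start lay within 1000 bases, against 12.9% of 9506 protein-coding genes tested. Partners of such pairs could move apart under LPS. Ndufaf7 and Cebpz, a ribosome assembly factor, start 70 bases apart, and in wild-type mice Ndufaf7 fell by 0.65 ± 0.16 on the log2 scale while Cebpz rose by 0.94 ± 0.14 (adjusted p = 0.000169, limma). In knockout mice the changes were -0.22 ± 0.16 and 0.78 ± 0.14 (adjusted p = 0.000807). Ndufaf5 changed by 0.11 ± 0.13 in knockout and 0.01 ± 0.13 in wild-type mice, while its partner Esf1, 85 bases away, rose by 0.44 ± 0.11 and 0.99 ± 0.11. Ndufaf2 and Ercc8, a repair factor 108 bases away, both rose in wild-type mice, by 0.55 ± 0.13 and 0.56 ± 0.11, while in knockout mice Ndufaf2 rose by 0.52 ± 0.13 and Ercc8 changed by 0.17 ± 0.11 (adjusted p = 0.198, limma). These pairs were chosen after their values were seen. Where partners overlap in exons, as Ndufb11 and Rbm10 do over 117 bases, reads may be shared, and 32 of the 92 genes share exon bases with another gene. Among the called genes, Ndufb6 shares 39.0% of its exon bases with Smim27 and Ndufa13 30.0% with Tssk6, both on the opposite strand. A pseudogene transcript at least 95% identical over 200 bases or more exists for 19 of the 92, with most copies for Atp5l (8), Atp5h (4) and Uqcrb (3), so the levels of these genes are uncertain. The 19 include genes called under LPS, namely Atp5g1, Cox7a2l, Ndufa12, Ndufab1, Ndufb3, Ndufb11 and Ndufs3.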

How the data were processed

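RNA of peritoneal cells was sequenced in 12 libraries. The authors deposited one table per library of 21878 rows, taken to be FPKM from their values and from Cufflinks being among the tools named. TopHat, Cufflinks, HTSeq and DESeq and the build GRCm38 are named per the submitters' processing notes, without versions or roles. Read depth cannot be had from FPKM and is unknown. The 27 rows whose symbols had become dates were left out.

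Values were taken to log2(FPKM + 1), and genes averaging 1 FPKM or more were fitted in limma 3.58.1 (R 4.3.3) with 4 group means over all 12 libraries, with trend and robust moderation. P-values were adjusted by Benjamini-Hochberg over all genes tested, with a threshold of 0.05. The steps were tested on simulated data. Alternatives were other pseudocounts, filters and scalings, plain moderation, a replicate block, fits of only the groups compared and removal of libraries. A promoter was searched for exact motif matches, and pseudogene copies were found with blastn 2.17.0.

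The members and lists were chosen with earlier results of these data known. Genes are named by a rule: up to 3 called members with the largest rise and 3 with the largest fall per complex, at 5 FPKM or more, the main catalytic subunits, isoforms and most abundant members, the largest genotype differences, and up to 3 genes per list. Further genes were named after their values were seen, among them those of the head-to-head pairs and all other called members. The values of 1 gene that this rule names are not reported here.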

Additional observations from a re-analysis of the deposited data

How the results depend on the processing

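Medians kept their value within the spread of the libraries in 107 of the values computed under alternatives and moved further in 7. Genes called higher numbered 11 in knockout mice, and 24 with median-of-ratios scaling, 21 with upper-quartile scaling, 7 with equal FPKM totals and 7 to 11 with 1 library left out (7 on removal of PBS replicate 3 or LPS replicate 2). Genes called lower numbered 6 in knockout mice, and 3 with median-of-ratios scaling, 16 with equal totals and 4 to 8 with 1 library left out. In wild-type mice 13 were called higher, and 32 with median-of-ratios scaling, 27 with upper-quartile scaling, 8 without the 2 libraries richest in erythroid markers, 8 when only the groups compared were fitted and 8 to 15 with 1 library left out (8 on removal of PBS replicate 2 or LPS replicate 2 or 3). There 12 were called lower, and 9 to 19 with 1 library left out (19 on removal of PBS replicate 2). When only the groups compared were fitted, 9 were called lower in wild-type mice, and 10 higher and 9 lower in knockout mice. The summed level under LPS over that under PBS was 1.01 in knockout mice, and 1.16 with median-of-ratios scaling, 1.11 with upper-quartile scaling and 0.92 with equal totals, and it was 1.02 in wild-type mice and 1.16 with median-of-ratios scaling. The scalings differ by construction in the level they hold equal. Between genotypes, and for the difference in response, 0 genes were called under all alternatives run. With the replicate number as a block, 10 genes were called higher and 6 lower in knockout mice, 12 and 12 in wild-type mice, and 0 in the other comparisons. Same-numbered libraries correlated between -0.254 and 0.19 in their deviations from the group means, and not every library correlated best with its own number, so the numbers were not taken to pair the libraries. With equal totals lower calls outnumbered higher ones in both genotypes. With 3 libraries a group, the 95% interval reached a median of 0.27 to either side of the estimate on the log2 scale for each contrast of a pair of groups and 0.38 for the difference in response.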
